A study of Homo sapiens with 12 samples.

Results

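The genes described here make cholesterol, sense it and move it: 30 genes given as a list by symbol, all 30 found by their Ensembl identifiers among the 20263 genes of the deposited tables. By role, 20 of them encode enzymes of the synthesis pathway, 4 encode the sterol-sensing machinery, 3 encode transport proteins inside the cell and 3 are targets of the liver X receptor (LXR). The study sequenced mRNA from a pair of established lines of human colorectal cancer, HCT116 and RKO, after the level of CKAP2L, a mitotic spindle protein, had been changed. There were 4 groups with 3 libraries each: HCT116 cells overexpressing CKAP2L (HCT116 CKAP2L), HCT116 cells with the control vector (HCT116 vector), RKO cells carrying an shRNA against CKAP2L (RKO shCKAP2L) and RKO cells with the negative control (RKO NC). CKAP2L was raised in the HCT116 pair and lowered in the RKO pair, so the line and the kind of manipulation cannot be told apart. The labels give neither the promoter or vector behind the constructs nor whether the cells were clones, pools or separate cultures. All p-values therefore rest on the variation among libraries, and how much of it is technical is unknown. In RKO shCKAP2L replicates 2 and 3 the genotype field reads shCKAP3L and shCKAP4L, but both titles read shCKAP2L, and grouping went by title.

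Cells build cholesterol from acetyl-CoA through mevalonate, the isoprenoid diphosphates, squalene and lanosterol, and a series of steps then turns lanosterol into cholesterol. When the membrane of the endoplasmic reticulum is poor in sterol, the escort protein SCAP carries the transcription factor precursor SREBP2 (gene SREBF2) to the Golgi, where it is cut and released to switch on the genes of the pathway; INSIG1 and INSIG2 hold SCAP back when sterol is plentiful. Oxysterols, which build up when sterol is abundant, activate LXR, whose targets export cholesterol or limit its uptake. The question put to the tables was how the synthesis genes under SREBP2 and the LXR-type genes behaved when CKAP2L was raised or lowered.

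The target itself moved as the labels say. CKAP2L had 231.0, 230.5 and 219.0 TPM (a level scaled by gene length and by library) in the HCT116 CKAP2L libraries, against 14.2, 12.8 and 15.2 TPM in the vector libraries. In RKO it had 7.59, 7.82 and 8.56 TPM in the shCKAP2L libraries, against 24.9, 24.0 and 25.8 TPM in the NC libraries. The log2 fold changes were 3.93 ± 0.05 (SE, limma adjusted p = 1.41e-15) in HCT116 and -1.53 ± 0.05 (adjusted p = 1.21e-12) in RKO. TPM keeps no read depth, so the depth is unknown here. The HCT116 libraries detected 16450 to 16684 genes and the RKO libraries 14181 to 14573 genes above 0 TPM. Of 8 epithelial markers, 7 were above 1 TPM in HCT116, where they summed to 6674 to 6745 TPM with CKAP2L and 7275 to 7666 TPM with vector. In RKO only 4 of the 8 were above 1 TPM and their sum was 149.3 to 158.4 TPM with shCKAP2L and 197.6 to 209.3 TPM with NC. The single markers went both ways. In HCT116 the keratins KRT8 and KRT18 fell by 0.32 and 0.22 on the log2 scale, while EPCAM, CLDN4 and CDH1 rose by 0.17, 0.12 and 0.11. In RKO KRT18 fell by 0.69, while KRT8 and EPCAM rose by 0.28 and 0.17. CDH1 was at 0 in all 6 RKO libraries, so the epithelial label of RKO rests on few markers. The 6 fibroblast markers summed to 47.5 to 47.7 TPM in HCT116 CKAP2L libraries and 41.1 to 44.7 TPM in vector libraries, nearly all of it COL1A1, which rose by 0.17 (adjusted p = 0.0132), and to at most 1.17 TPM in RKO libraries; COL1A2, DCN and LUM were at or near 0 in both lines. Immune and endothelial markers summed to at most 1.94 TPM in any library. The part of these markers in the results was not tested. The 13 mitochondrially encoded mRNAs took 25.7 to 26.1% of the TPM in HCT116 CKAP2L libraries and 28.0 to 28.6% in vector libraries, and 22.4 to 23.7% in RKO shCKAP2L libraries and 20.4 to 22.5% in NC libraries.

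A promoter search shows what the members have in common outside their expression. RefSeq promoter windows (GRCh38.p14, 250 bases before to 50 after the start) were held for 26 of the 30 members; ACAT2, FDFT1, SQLE and ABCG1 had no entry. The search covered both strands for TCACNCCAC, the core of a sterol regulatory element, and for CCAAT, the box bound by NF-Y, which reads ATTGG on the reverse strand. No match of the element overlapped a CCAAT match in the printed sequences. The sequences below are the 200 bases before the start, with the matched letters in capitals. They were chosen to show the only member with the sterol element core (SREBF2, chr22:41832905-41833104, plus strand), the members with the largest changes in the synthesis and transport groups (MSMO1, chr4:165327469-165327668, plus strand, and STARD4, chr5:111512536-111512735, minus strand), the member that rose in both lines by most (INSIG1, chr7:155297678-155297877, plus strand), and an enzyme pair of neighbouring steps with and without CCAAT (MVD, chr16:88663092-88663291, minus strand, and PMVK, chr1:154936720-154936919, minus strand).
SREBF2: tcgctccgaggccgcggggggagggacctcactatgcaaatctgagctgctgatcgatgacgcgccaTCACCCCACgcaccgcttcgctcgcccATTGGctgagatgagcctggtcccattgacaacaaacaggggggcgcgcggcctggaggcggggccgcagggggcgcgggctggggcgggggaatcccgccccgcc
MSMO1: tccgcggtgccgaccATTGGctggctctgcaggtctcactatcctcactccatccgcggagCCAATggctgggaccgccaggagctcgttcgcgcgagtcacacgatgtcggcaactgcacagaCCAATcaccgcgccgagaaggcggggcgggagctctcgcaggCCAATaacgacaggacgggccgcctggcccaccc
STARD4: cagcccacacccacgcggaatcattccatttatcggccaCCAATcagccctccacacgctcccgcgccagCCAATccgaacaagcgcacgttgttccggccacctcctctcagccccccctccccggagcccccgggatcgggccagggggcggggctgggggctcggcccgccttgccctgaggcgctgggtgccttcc
INSIG1: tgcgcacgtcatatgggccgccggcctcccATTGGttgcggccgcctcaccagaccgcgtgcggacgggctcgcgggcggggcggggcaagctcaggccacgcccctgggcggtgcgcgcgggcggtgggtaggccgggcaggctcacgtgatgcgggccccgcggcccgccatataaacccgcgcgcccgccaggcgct
MVD: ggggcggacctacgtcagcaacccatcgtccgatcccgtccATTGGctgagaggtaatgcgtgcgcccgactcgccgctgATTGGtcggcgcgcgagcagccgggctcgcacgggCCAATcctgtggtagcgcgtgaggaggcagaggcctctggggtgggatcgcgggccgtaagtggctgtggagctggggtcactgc
PMVK: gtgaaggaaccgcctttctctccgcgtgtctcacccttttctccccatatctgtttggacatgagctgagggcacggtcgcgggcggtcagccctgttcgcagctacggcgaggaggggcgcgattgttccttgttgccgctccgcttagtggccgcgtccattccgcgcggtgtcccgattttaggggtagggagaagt

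CCAAT stood in the windows of 19 of the 26 members (73.1%) and of 14 of the 17 enzymes with a window (82.4%), against 39.7% of the 27305 genes in the RefSeq table and 43.5% of the 9024 such genes tested in both lines. In 7 members at least 3 CCAAT matches lay within a single window, which held for 3.26% of all 35116 windows. That share is of windows, not of genes, and a member could have up to 3 windows, so the values are not like for like. MVK and NSDHL had 5 matches each and MSMO1 had 4. Overlapping matches on opposite strands were counted separately, which raised the counts of NSDHL and IDI1. Without that, IDI1 would not be among the 7. The sterol element core was in 1 of the 26 members, SREBF2 itself, against 1.39% of all genes with a window. These are matches of letters, not binding sites, and a promoter without a match says nothing about the factor.

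**Figure D1:**
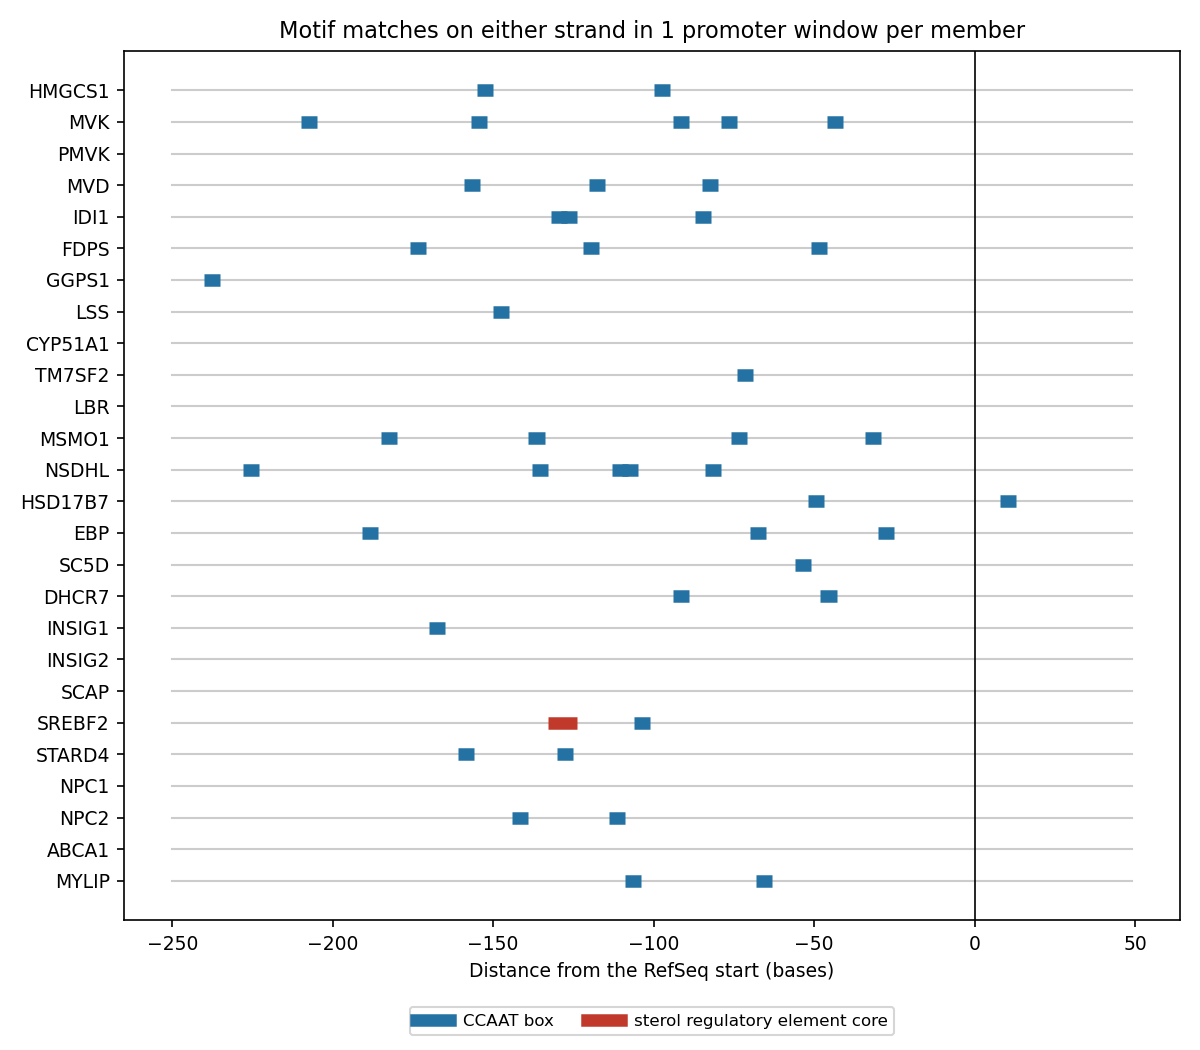
Position of every CCAAT box (blue) and sterol regulatory element core (red) in the promoter window with the most matches for each of the 26 members, by distance in bases from the RefSeq start (vertical line). Most CCAAT matches lie upstream of the start, as does most of the window (250 bases before, 50 after). At least 3 matches were found in 7 members (overlapping matches on opposite strands counted separately), and SREBF2 alone has the sterol element core.

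In HCT116, raising CKAP2L went with higher levels of most of the group. Of 30 members tested, 19 rose and 0 fell at an adjusted p under 0.05 (limma on log2(TPM + 1), adjusted over all 12732 genes tested), and at an unadjusted p under 0.05 limma had 1 member, NPC2, lower. Across all tested genes 16.4% rose and 4.26% fell, 20.6% together. The members' median log2 fold change was 0.24 when HCT116 CKAP2L was set against vector, and that of all tested genes was 0.05. The libraries of the groups did not overlap in 21 of the 30 members, against 37.3% of all tested genes. The 2082 genes called higher and 543 called lower over the whole table split differently after rescaling: 1119 and 1203 with median-of-ratios factors, 1102 and 1131 with quantile normalization, and 1158 and 959 without the mitochondrial mRNAs. Under each of these 3 scalings 17 members rose and 1, NPC2, fell. With bulk RNA, a change in the number of cells of a kind and a change in RNA per cell cannot be told apart.

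In RKO, lowering CKAP2L went with lower levels of most of the group. Of 28 members tested, 23 fell and 3 rose, while 42.1% of the 11442 tested genes fell and 26.4% rose, 68.5% together. ABCA1 and ABCG1 were under the minimum mean of 1 TPM and were not tested. The median log2 fold change was -0.45 for the members and -0.05 for all tested genes, with RKO shCKAP2L set against NC. Libraries did not overlap in 25 of the 28 members, against 71.4% of all tested genes, so a count of separated groups says little in this line.

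**Figure D2:**
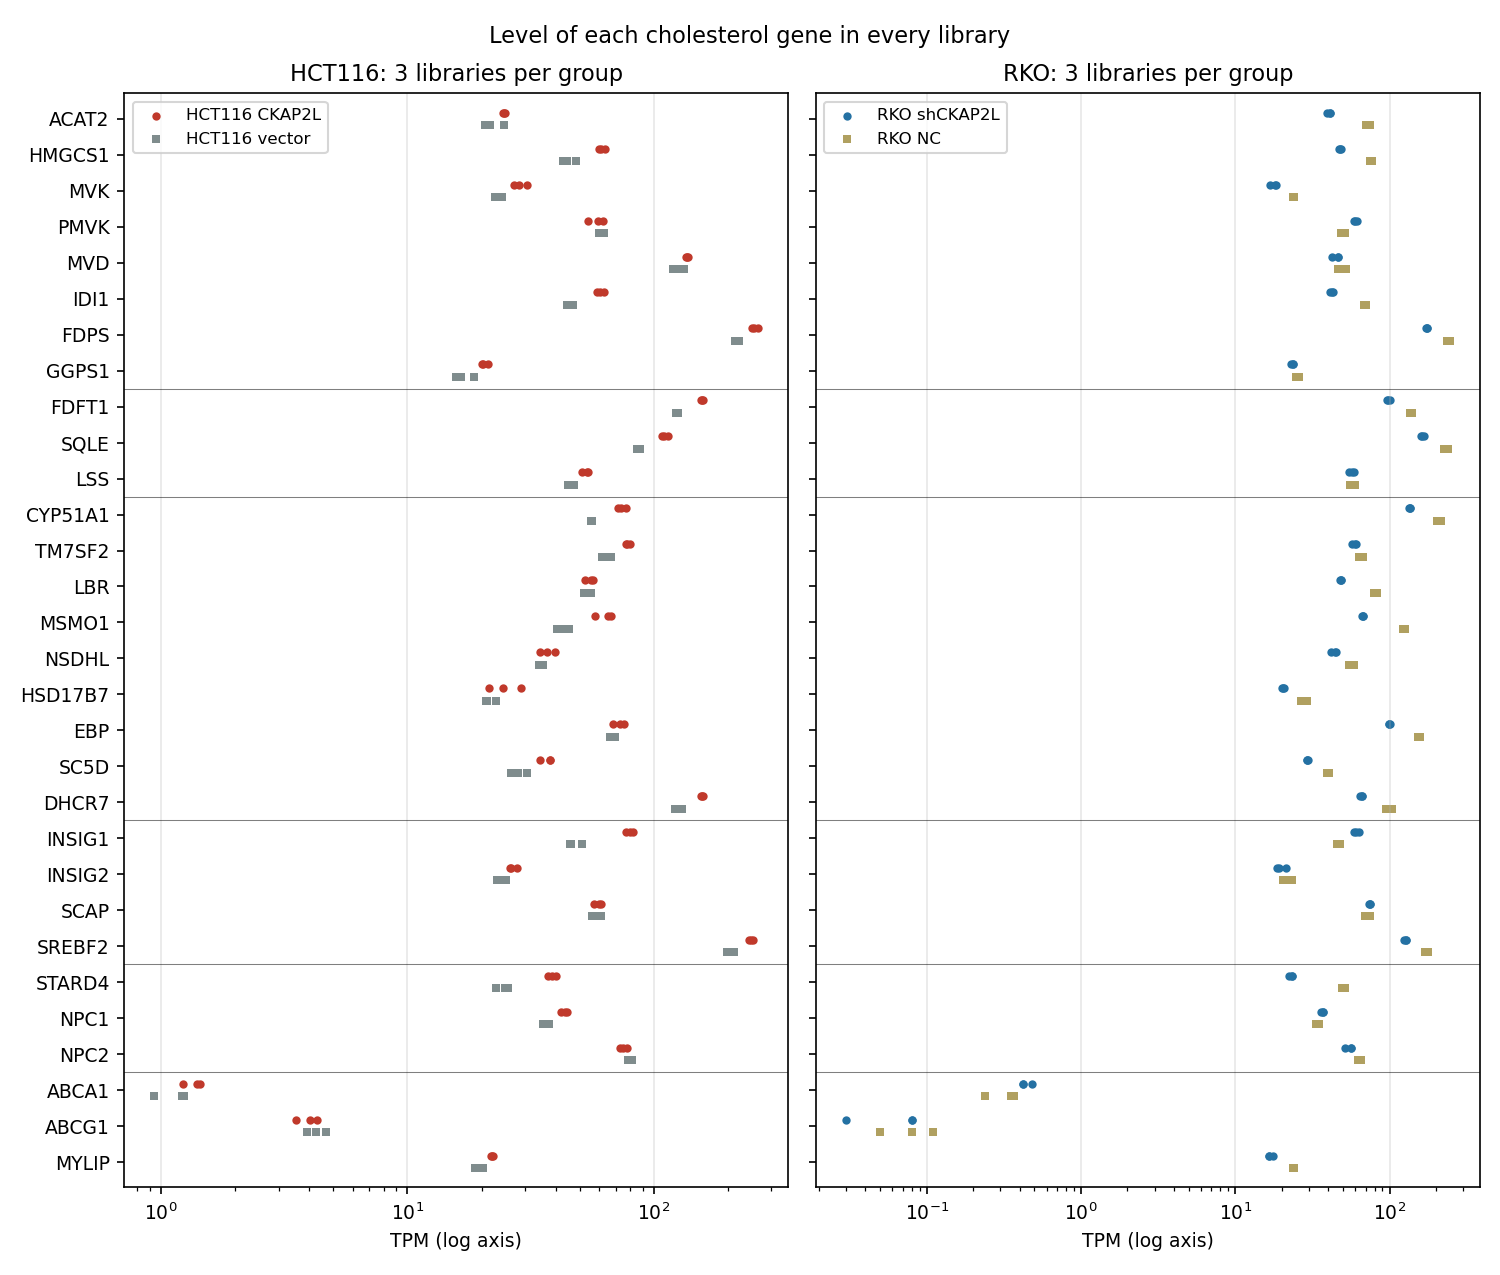
TPM of each of the 30 genes in every library on a log axis, with HCT116 on the left (CKAP2L, circles; vector, squares) and RKO on the right (shCKAP2L, circles; NC, squares); horizontal lines divide the roles. Most circles sit right of the squares in HCT116 and left of them in RKO, and ABCA1 and ABCG1 lie far below the other genes.

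**Figure D3:**
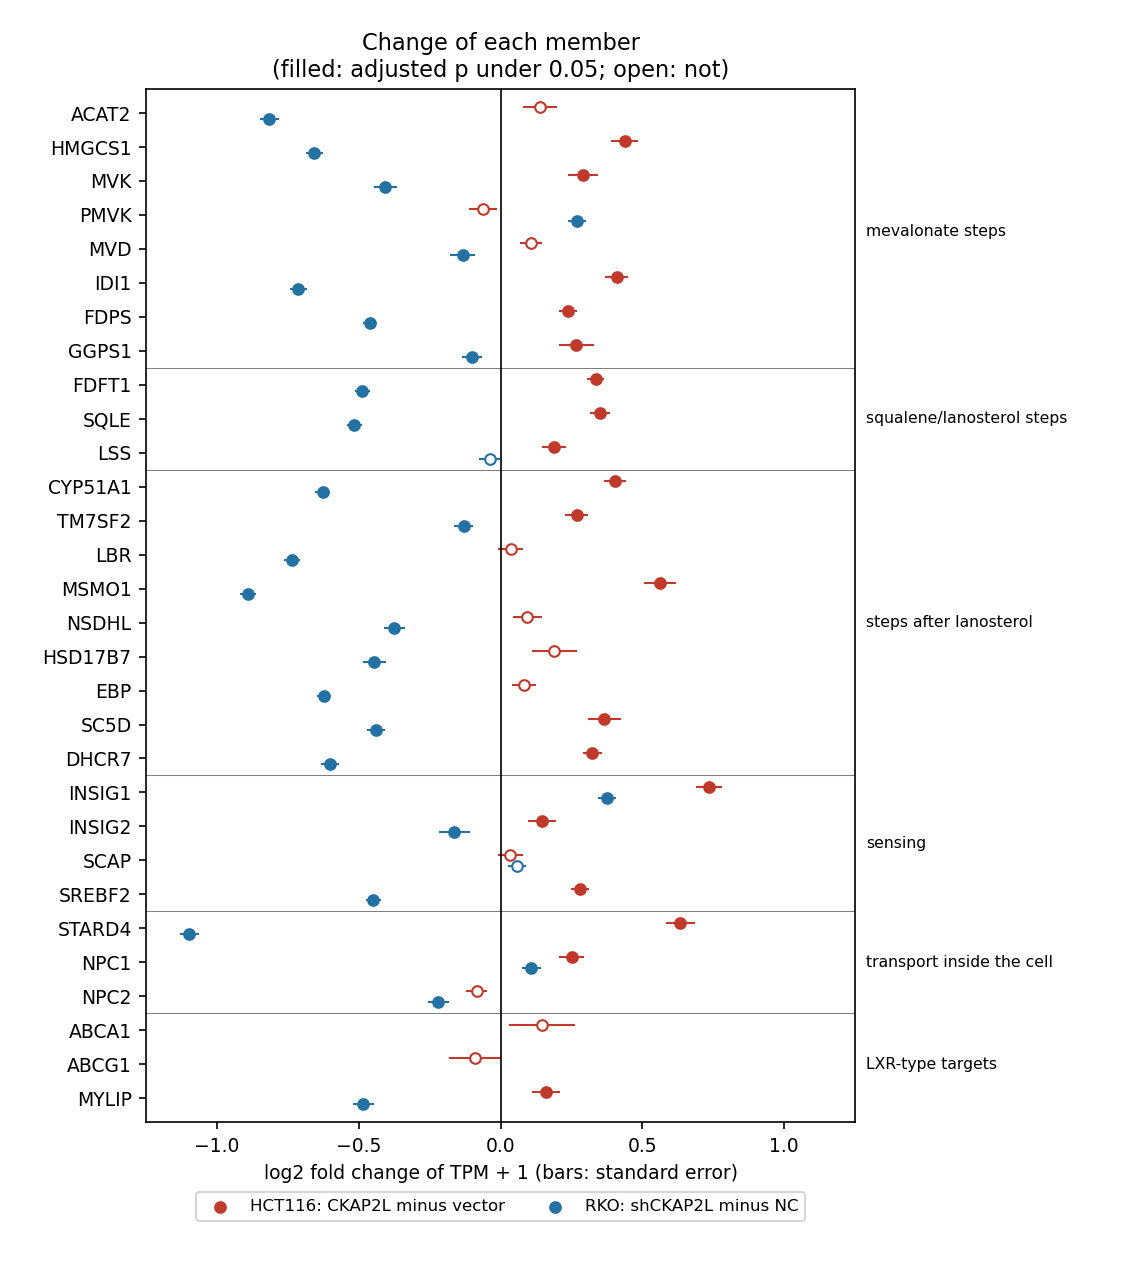
Log2 fold change of TPM + 1 for each of the 30 genes, in HCT116 (CKAP2L minus vector, red) and RKO (shCKAP2L minus NC, blue), with standard errors as bars; filled points passed an adjusted p of 0.05. INSIG1 and NPC1 are the genes with filled points right of 0 in both lines, and STARD4 has the lowest point in RKO.

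The summed level of the synthesis enzymes was higher where CKAP2L was higher in both lines. It was 1567 ± 14.6 TPM in HCT116 CKAP2L cells and 1310 ± 23.5 TPM in HCT116 vector cells (SD, n = 3 each). In RKO it was 1337 ± 9.02 TPM in shCKAP2L cells and 1895 ± 30.7 TPM in NC cells. In HCT116, 13 of the 20 enzymes rose and 0 fell, and in RKO 18 fell and 1, PMVK, rose. Called in opposite directions in the lines were 12 of the 20. Over all tested genes 16.4% rose in HCT116 and 42.1% fell in RKO, and 7.32% of those tested in both lines did both.

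The mevalonate steps hold 8 of the enzymes: ACAT2, which joins acetyl-CoA units, HMGCS1, which makes HMG-CoA, the kinases MVK and PMVK, the decarboxylase MVD, the isomerase IDI1, and the synthases FDPS and GGPS1, which build the longer isoprenoid diphosphates. Of these 8, 5 rose in HCT116, while in RKO 7 fell and 1 rose. Over all tested genes 16.4% rose in HCT116, and 42.1% fell and 26.4% rose in RKO. HMGCS1 had 61.3, 63.5 and 59.95 TPM with CKAP2L in HCT116, against 42.7, 44.6 and 48.4 TPM with vector. In RKO it had 47.0, 48.3 and 47.5 TPM with shCKAP2L, against 75.1, 76.8 and 75.0 TPM with NC. All libraries with more CKAP2L were thus above all those with less in both lines, and the log2 fold changes were 0.44 ± 0.05 (adjusted p = 2.37e-05) in HCT116 and -0.66 ± 0.03 (adjusted p = 3.23e-11) in RKO. IDI1 moved by like amounts, 0.41 ± 0.04 in HCT116 and -0.71 ± 0.03 in RKO.

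ACAT2 was uneven between the lines. It had 41.4, 41.3 and 39.1 TPM in RKO shCKAP2L libraries, against 70.7, 74.8 and 71.2 TPM in NC libraries, a log2 fold change of -0.82 ± 0.03 (adjusted p = 1.83e-11). In HCT116 its 24.5, 24.8 and 24.6 TPM with CKAP2L overlapped the 20.7, 21.5 and 24.7 TPM with vector, and the difference of 0.14 ± 0.06 did not pass (adjusted p = 0.114). Vector replicate 3 decided that: without it the value was 0.21 (adjusted p = 0.006, between 0.006 and 0.37 over all alternatives). By exon annotation ACAT2 shares 26.5% of its exon bases with SOD2, which was not used here, and 9.23% with TCP1, both on the opposite strand, and how the authors handled strand is not stated in the labels or notes.

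PMVK, the kinase after MVK, was the enzyme that went the other way. It had 59.7, 61.7 and 59.1 TPM with shCKAP2L in RKO, against 49.4, 51.5 and 48.3 TPM with NC, a log2 fold change of 0.27 ± 0.03 (adjusted p = 2.7e-06). All 3 knockdown libraries were above all 3 NC libraries. In HCT116 its groups overlapped, at 58.5 ± 4.25 TPM with CKAP2L and 61.0 ± 1.43 TPM with vector (SD, n = 3 each, adjusted p = 0.399). MVK, the preceding kinase, did the opposite in RKO, with 17.8 ± 0.94 TPM in shCKAP2L cells and 23.8 ± 0.17 TPM in NC cells (log2 fold change -0.41 ± 0.04), and rose by 0.29 ± 0.05 in HCT116.

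FDPS, the source of farnesyl diphosphate for both squalene and protein prenylation, had the highest mean of the 20 enzymes in all 4 groups, though its RKO NC libraries overlapped those of SQLE. It averaged 256.7 ± 7.77 TPM in HCT116 CKAP2L cells and 217.3 ± 3.61 TPM in vector cells, and 174.0 ± 1.47 TPM in RKO shCKAP2L cells and 240.1 ± 4.69 TPM in NC cells. Both differences passed (log2 fold changes 0.24 ± 0.03 and -0.46 ± 0.03). GGPS1, which leads away from sterols to geranylgeranyl diphosphate, rose by 0.27 ± 0.06 in HCT116 but fell by only 0.10 in RKO (adjusted p = 0.0199, between 0.00875 and 0.233 over all alternatives). MVD fell by 0.13 in RKO (adjusted p = 0.0137, between 0.0017 and 0.221) and had a value of 0.11 ± 0.04 in HCT116 that did not pass (adjusted p = 0.0627). GGPS1 shares 37.3% of its exon bases with TBCE on the same strand, which was not used here, so its level is uncertain. Without RKO shCKAP2L replicate 3 or without RKO NC replicate 2 the RKO calls of GGPS1 and MVD were lost, at -0.09 for both genes in each case. The RKO call of GGPS1 was also lost under each rescaling. That of MVD was also lost under median-of-ratios and quantile scaling, with no filter and with no variance trend. Without HCT116 vector replicate 3, MVD passed in HCT116 at 0.14 (adjusted p = 0.01, between 0.01 and 0.379).

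The squalene and lanosterol steps are run by FDFT1, which makes squalene, SQLE, the squalene epoxidase and a control point of the later pathway, and LSS, which closes the rings of lanosterol. All 3 rose in HCT116, and 2 of the 3 fell in RKO. Over all tested genes 16.4% rose in HCT116 and 42.1% fell in RKO, so the RKO count says little. SQLE had 110.1, 114.6 and 107.7 TPM with CKAP2L in HCT116, against 85.7, 87.9 and 86.2 TPM with vector. In RKO SQLE had 161.3, 160.1 and 167.0 TPM with shCKAP2L, against 238.5, 234.9 and 226.4 TPM with NC. The groups were apart in both lines, with log2 fold changes of 0.35 ± 0.04 (adjusted p = 1.25e-05) and -0.52 ± 0.03 (adjusted p = 2.91e-10). FDFT1 changed by 0.34 ± 0.03 and -0.49 ± 0.03. LSS rose by 0.19 ± 0.04 in HCT116, and its RKO groups overlapped at 56.9 ± 2.42 TPM with shCKAP2L and 58.5 ± 2.48 TPM with NC (SD, n = 3 each, adjusted p = 0.374); its RKO value of -0.04 turned positive under median-of-ratios and quantile scaling.

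After lanosterol, 5 of 9 enzymes rose in HCT116 and all 9 fell in RKO, against 16.4% and 42.1% of all tested genes. MSMO1, a methyl oxidase that acts after CYP51A1 and starts the removal of the remaining methyl groups at carbon 4, had the largest fold change of any enzyme in both lines. It had 65.3, 67.3 and 57.7 TPM with CKAP2L in HCT116, against 40.6, 45.1 and 42.0 TPM with vector. In RKO MSMO1 had 66.7, 67.1 and 66.8 TPM with shCKAP2L, against 126.9, 122.1 and 125.7 TPM with NC. The RKO knockdown level was 0.536 times the NC level, and all groups were apart (log2 fold changes 0.56 ± 0.06, adjusted p = 1.15e-05, and -0.89 ± 0.03, adjusted p = 7.6e-13). Among genes with a mean of at least 5 TPM, MSMO1 ranked 40 of 10502 for its rise in HCT116 and 38 of 9982 for its fall in RKO. Its promoter, printed above, holds 4 CCAAT matches.

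CYP51A1, the lanosterol demethylase, and DHCR7, the reductase that yields cholesterol in the last step of a branch, were also apart in both lines. CYP51A1 averaged 74.3 ± 2.96 TPM in HCT116 CKAP2L cells and 55.9 ± 0.15 TPM in vector cells, and 134.7 ± 1.54 TPM in RKO shCKAP2L cells and 208.6 ± 5.47 TPM in NC cells. DHCR7 averaged 157.2 ± 1.61 TPM in HCT116 CKAP2L cells and 125.4 ± 4.23 TPM in vector cells, and 65.8 ± 1.06 TPM in RKO shCKAP2L cells and 100.5 ± 4.31 TPM in NC cells. All 4 differences passed (log2 fold changes 0.40 and -0.63 for CYP51A1, 0.32 and -0.60 for DHCR7). SC5D, the desaturase before DHCR7, changed by 0.37 ± 0.06 and -0.44 ± 0.03. CYP51A1 shares 79.4% of its exon bases with the annotated gene AC000120.2 on the same strand, which was not used here, and GENCODE 29 names 3 pseudogenes after CYP51A1, 8 after FDPS and 2 after HSD17B7, so how reads were divided among these copies is uncertain.

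LBR and TM7SF2 encode enzymes for the same reduction of the sterol ring, LBR as part of the inner nuclear membrane and TM7SF2 in the endoplasmic reticulum. LBR had 48.6, 47.6 and 48.6 TPM with shCKAP2L in RKO, against 82.9, 80.4 and 79.9 TPM with NC, and fell by 0.73 on the log2 scale (SE 0.03, adjusted p = 1.07e-11). In HCT116 its groups overlapped, at 54.9 ± 2.18 TPM with CKAP2L and 53.6 ± 1.89 TPM with vector (adjusted p = 0.6 by limma, with a sign that turned under all 3 rescalings). TM7SF2 rose by 0.27 ± 0.04 in HCT116 and fell by 0.13 in RKO, where the call was lost under quantile normalization (adjusted p = 0.0544, between 0.00101 and 0.0544 over all alternatives). The ratio of LBR to TM7SF2 was therefore lower in the manipulated cells of both lines: 0.702 ± 0.040 in HCT116 CKAP2L cells and 0.826 ± 0.024 in vector cells, and 0.812 ± 0.029 in RKO shCKAP2L cells and 1.24 ± 0.044 in NC cells (SD, n = 3 each). No library overlapped in either line, and the exact two-sided permutation p of 0.1 per line is the smallest that 3 against 3 allows. The ratio was chosen after its values were seen. With the groups apart, p could take no other value, so it adds nothing to the separation.

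The other 3 enzymes of this stretch, NSDHL and HSD17B7, which act with MSMO1 in removing methyl groups, and EBP, the isomerase that shifts a double bond, fell in RKO and did not pass in HCT116. EBP averaged 100.1 ± 0.97 TPM in RKO shCKAP2L cells and 154.7 ± 2.95 TPM in NC cells (log2 fold change -0.62 ± 0.03). In HCT116 it averaged 72.2 ± 3.61 TPM with CKAP2L and 68.1 ± 1.59 TPM with vector (0.08 ± 0.04, adjusted p = 0.18). NSDHL and HSD17B7 had RKO changes of -0.38 and -0.45. HSD17B7 had an HCT116 value of 0.19 ± 0.08 (adjusted p = 0.111, between 0.0161 and 0.433), which passed at 0.29 (adjusted p = 0.0161) without HCT116 CKAP2L replicate 2.

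Among the sensing genes the members parted. INSIG1, which retains SCAP and helps to degrade the rate-limiting reductase of the pathway, had 79.8, 82.4 and 77.4 TPM with CKAP2L in HCT116, against 45.8, 46.3 and 50.9 TPM with vector. In RKO it had 59.2, 63.0 and 60.5 TPM with shCKAP2L, against 47.4, 45.8 and 46.9 TPM with NC. INSIG1 was thus higher in all 3 manipulated libraries of both lines, whether CKAP2L was raised or lowered. The log2 fold changes were 0.73 ± 0.05 (adjusted p = 1.49e-07) and 0.38 ± 0.03 (adjusted p = 5.33e-08), and in HCT116 INSIG1 ranked 13 of 10502 genes for its rise. A rise in both lines was called for 2 members, INSIG1 and NPC1, and for 5.15% of the 11024 genes tested in both.

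INSIG2, which also retains SCAP, stayed closer to its controls. It averaged 26.7 ± 0.86 TPM in HCT116 CKAP2L cells and 24.1 ± 1.02 TPM in vector cells, and 19.7 ± 1.35 TPM in RKO shCKAP2L cells and 22.2 ± 1.64 TPM in NC cells. Its changes of 0.15 ± 0.05 (adjusted p = 0.0494, between 0.0427 and 0.288 over all alternatives) and -0.16 ± 0.05 (adjusted p = 0.0147, between 0.0022 and 0.0708) sat at the threshold. The HCT116 call was lost without CKAP2L replicate 1, 2 or 3 and without vector replicate 1 or 3 (values 0.12 to 0.16), and the RKO call without shCKAP2L replicate 1 or NC replicate 1 or 2 (values -0.14 to -0.12). The ratio of INSIG1 to INSIG2 was 2.99 ± 0.18 in HCT116 CKAP2L cells and 1.99 ± 0.20 in vector cells, and 3.09 ± 0.11 in RKO shCKAP2L cells and 2.11 ± 0.18 in NC cells.

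SREBF2, the gene of SREBP2, followed the enzymes. It had 251.4, 243.6 and 247.6 TPM with CKAP2L in HCT116, against 201.3, 198.1 and 211.9 TPM with vector. In RKO SREBF2 had 124.6, 128.1 and 127.3 TPM with shCKAP2L, against 170.4, 177.6 and 171.8 TPM with NC. The groups were apart in both lines, with log2 fold changes of 0.28 ± 0.03 (adjusted p = 5.22e-05) and -0.45 ± 0.03 (adjusted p = 8.17e-10). Its promoter is the one with the sterol element core. The microRNA gene MIR33A lies within the SREBF2 gene and was not analysed here. SCAP, the escort protein, passed in neither line, at 59.3 ± 1.81 TPM in HCT116 CKAP2L cells and 58.0 ± 2.85 TPM in vector cells, and 74.5 ± 0.83 TPM in RKO shCKAP2L cells and 71.6 ± 2.58 TPM in NC cells. Its RKO value of 0.06 (adjusted p = 0.111, between 0.000842 and 0.297) passed at 0.09 without NC replicate 2 (adjusted p = 0.0231) and under each rescaling, and its HCT116 value of 0.03 turned negative under each rescaling.

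**Figure D4:**
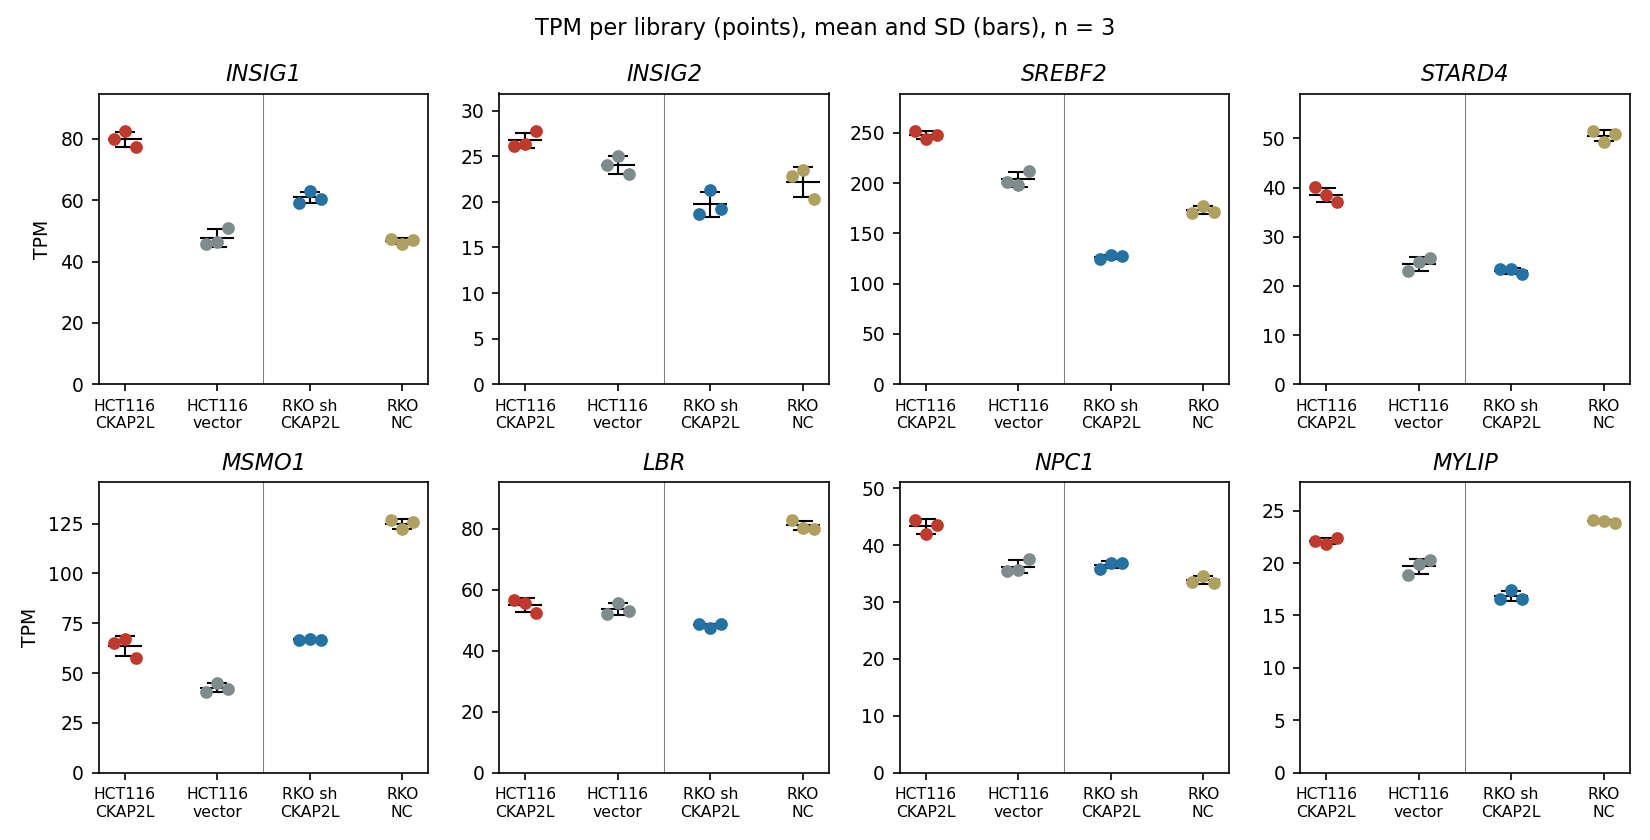
TPM of 8 genes in every library (points) with the mean and SD (bars, n = 3). Groups are HCT116 CKAP2L, HCT116 vector, RKO shCKAP2L and RKO NC. Each panel has its own axis from 0, and the vertical line divides HCT116 from RKO. INSIG1 and NPC1 are higher in the manipulated group of both lines, whereas SREBF2, STARD4, MSMO1 and MYLIP are higher in HCT116 CKAP2L and lower in RKO shCKAP2L.

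Among the transport genes, STARD4, a soluble carrier that moves sterol between membranes, made the largest change of any member in RKO. It had 23.4, 23.4 and 22.4 TPM with shCKAP2L, against 51.4, 49.3 and 50.8 TPM with NC, a ratio of 0.457. In HCT116 it had 40.0, 38.5 and 37.0 TPM with CKAP2L, against 23.0, 24.8 and 25.7 TPM with vector, a ratio of 1.57. All groups were apart, with log2 fold changes of 0.63 ± 0.05 (adjusted p = 1.72e-06) in HCT116 and -1.10 ± 0.03 (adjusted p = 1.01e-12) in RKO. STARD4 ranked 9 of 9982 genes for its fall in RKO and 26 of 10502 for its rise in HCT116.

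NPC1 and NPC2, partners that take cholesterol out of late endosomes and lysosomes, did not move together. NPC1 had 44.4, 41.9 and 43.5 TPM with CKAP2L in HCT116, against 35.5, 35.6 and 37.6 TPM with vector. In RKO it had 35.8, 36.9 and 36.9 TPM with shCKAP2L, against 33.5, 34.7 and 33.4 TPM with NC. It was higher in every manipulated library, by 0.25 ± 0.04 (adjusted p = 0.00123) and 0.11 ± 0.03 (adjusted p = 0.00851, 0.17 under quantile normalization). NPC2 fell in RKO, to 54.8 ± 2.87 TPM in shCKAP2L cells, against 63.9 ± 1.57 TPM in NC cells (log2 fold change -0.22 ± 0.04). In HCT116 it averaged 75.1 ± 2.32 TPM with CKAP2L and 79.7 ± 1.39 TPM with vector, which did not pass as deposited (adjusted p = 0.121, between 0.0164 and 0.326) and passed as a fall under each rescaling. Both genes share exon bases with a neighbour on the other strand, 5.98% for NPC1 with RMC1 and 3.75% for NPC2 with ISCA2.

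Of the 3 LXR-type targets, 1 rose in HCT116, and in RKO the 1 that could be tested fell. With 16.4% of all tested genes higher in HCT116 and 42.1% lower in RKO, these counts say little. ABCA1, the exporter that loads cholesterol onto apolipoprotein, had 1.40, 1.44 and 1.23 TPM with CKAP2L in HCT116, against 0.94, 1.24 and 1.22 TPM with vector, and the groups overlapped (adjusted p = 0.394). In RKO it stood at 0.42, 0.42 and 0.48 TPM with shCKAP2L, against 0.35, 0.24 and 0.37 TPM with NC. These levels were too low for the filter, and without a filter the difference was 0.13 on the log2(TPM + 1) scale, which understates changes of low genes (adjusted p = 0.0481). ABCG1, a partner in export, averaged 3.96 ± 0.39 TPM in HCT116 CKAP2L cells and 4.28 ± 0.39 TPM in vector cells (adjusted p = 0.521), and its 6 RKO libraries lay between 0.03 and 0.11 TPM.

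MYLIP, a ubiquitin ligase that marks lipoprotein receptors for degradation, was the LXR-type target at an appreciable level. It had 16.6, 17.5 and 16.6 TPM with shCKAP2L in RKO, against 24.1, 24.0 and 23.8 TPM with NC, and fell by 0.48 on the log2 scale (SE 0.04, adjusted p = 1.87e-08). In HCT116 it had 22.1, 21.8 and 22.3 TPM with CKAP2L, against 18.8, 19.9 and 20.3 TPM with vector, a change of 0.16 ± 0.05 (adjusted p = 0.0363, between 0.0188 and 0.143 over all alternatives). The HCT116 call was lost without CKAP2L replicate 1, 2 or 3 and without vector replicate 1 or 2, at 0.13 to 0.17. It was also lost with no filter, no variance trend or a replicate block and under each rescaling. It held in 4 of 15 alternatives, though the sign stayed positive in all. MYLIP thus had the direction of the synthesis enzymes in both lines, and the summed level of the 3 LXR-type genes, most of it MYLIP, was 27.4 ± 0.25 TPM in HCT116 CKAP2L cells and 25.1 ± 1.28 TPM in vector cells, and 17.4 ± 0.46 TPM in RKO shCKAP2L cells and 24.4 ± 0.13 TPM in NC cells.

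Set side by side, the comparisons in HCT116 and RKO share no library. A rise in HCT116 CKAP2L together with a fall in RKO shCKAP2L was called for 16 of the 28 members tested in both lines, against 7.32% of the 11024 genes tested in both. These were HMGCS1, MVK, IDI1, FDPS, GGPS1, FDFT1, SQLE, CYP51A1, TM7SF2, MSMO1, SC5D, DHCR7, INSIG2, SREBF2, STARD4 and MYLIP. Of these, INSIG2 and MYLIP lost their HCT116 calls in most alternatives. In RKO, GGPS1 and INSIG2 kept their calls in 10 of 15 alternatives each, and TM7SF2 in 14 of 15. Under median-of-ratios, quantile and mitochondria-free scaling the count was 13, 12 and 13. A further 7 members, ACAT2, MVD, LBR, NSDHL, HSD17B7, EBP and NPC2, fell in RKO and did not pass in HCT116. Over the 28 members the log2 fold changes of the lines had a Pearson r of -0.27 and a Spearman rho of -0.35, and without INSIG1 they had -0.60 and -0.50 over 27 members. NPC1, which like INSIG1 rose in both lines, was kept in both sets. Over all 11024 genes, with none left out, the values were 0.04 and 0.07. These are descriptions over genes that share libraries and regulation, with no test.

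**Figure D5:**
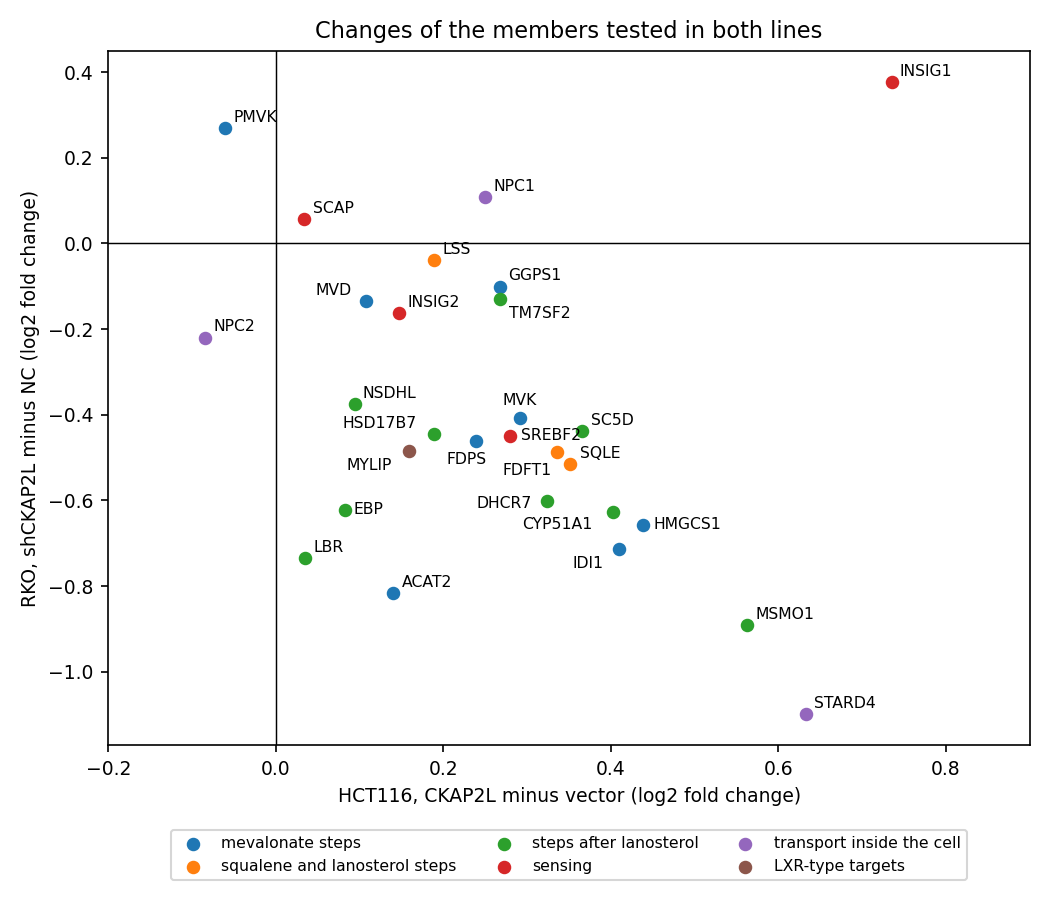
Log2 fold change in RKO (shCKAP2L minus NC, vertical axis) against that in HCT116 (CKAP2L minus vector, horizontal axis) for the 28 members tested in both lines, coloured by role. Most members lie in the lower right, with STARD4 and MSMO1 farthest out, and INSIG1, NPC1 and SCAP lie at the upper right, of which INSIG1 and NPC1 were called in both lines.

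The size of the change per direction of CKAP2L was then compared between the lines, as the HCT116 difference (CKAP2L minus vector) minus the RKO difference taken the same way up (NC minus shCKAP2L). It passed in 22 of 28 members, against 54.5% of the 11024 genes in that fit. The largest differences were in INSIG1 (1.11 ± 0.06, adjusted p = 3.55e-11), LBR (-0.70 ± 0.05, adjusted p = 2.8e-09), ACAT2 (-0.68 ± 0.07, adjusted p = 2.64e-07) and EBP (-0.54 ± 0.05, adjusted p = 4.38e-08). A negative value means that the HCT116 difference was below the RKO difference. For LBR, ACAT2 and EBP the change was larger in RKO. The differences are not scaled to the change in CKAP2L, so they give no steepness. MVK, MVD, GGPS1, SC5D, INSIG2 and SCAP did not pass, with adjusted p between 0.0565 and 0.878, which does not show that they changed alike. The change in CKAP2L itself also differed between the lines, by 2.40 ± 0.08.

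INSIG1 and HMGCS1, both textbook targets of SREBP2, were set against each other. Both rose in HCT116, while in RKO INSIG1 rose and HMGCS1 fell. HMGCS1 does not stand for all the enzymes, and SREBF2, also a sensing gene, followed the enzymes. The ratio of INSIG1 to HMGCS1 was 1.30 ± 0.005 in HCT116 CKAP2L cells and 1.05 ± 0.016 in vector cells, and 1.28 ± 0.021 in RKO shCKAP2L cells and 0.617 ± 0.019 in NC cells (SD, n = 3 each). No library overlapped in either line, and the exact two-sided permutation p was again 0.1 in each. This ratio too was chosen after its values were seen, and p could take no other value with the groups apart.

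Beyond the 30 genes, 65 companion genes of the same pathways were read in 7 lists. Of 61 tested in HCT116, 17 rose and 1 fell (median log2 fold change 0.06), and of 58 tested in RKO, 12 rose and 31 fell (median -0.09), medians close to those of all tested genes. Over all tested genes 16.4% rose and 4.26% fell in HCT116, and 26.4% rose and 42.1% fell in RKO, so in RKO the companions' counts were near the background. Without HCT116 CKAP2L replicate 2 the HCT116 counts were 11 and 0. In the list of other SREBP2-responsive genes, 4 of 5 rose in HCT116, and 4 of 5 fell and 1 rose in RKO (medians 0.22 and -0.21). RDH11, a retinal reductase, averaged 94.3 ± 3.29 TPM in HCT116 CKAP2L cells and 77.5 ± 2.98 TPM in vector cells, and 109.9 ± 2.04 TPM in RKO shCKAP2L cells and 154.6 ± 1.85 TPM in NC cells. LPIN1, a phosphatidate phosphatase, rose in both lines like INSIG1 (0.46 ± 0.06 and 0.18 ± 0.03). TMEM97, a partner of NPC1, fell in RKO by 0.66 and had 0.00 ± 0.04 in HCT116.

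Of 13 other genes of sterol sensing and enzyme turnover, 3 rose in HCT116, and 2 rose and 8 fell in RKO, counts near the 20.6% and 68.5% of all tested genes called in those lines. The site-1 protease gene MBTPS1 fell by 0.24 in RKO, and UBE2G2, a ubiquitin-conjugating enzyme, fell by 0.39. RNF139, a sterol-sensing ubiquitin ligase, rose by 0.27 in RKO, and RNF145, another ligase linked to sterols, rose by 0.24 in HCT116. Among 10 other LXR factors and targets, 1 of 8 tested rose in HCT116, and 3 of 7 tested rose and 3 fell in RKO. SREBF1, the gene of SREBP1 and an LXR target, was 224.6 ± 3.18 TPM in HCT116 CKAP2L cells and 173.4 ± 6.63 TPM in vector cells, and 62.2 ± 0.95 TPM in RKO shCKAP2L cells and 79.9 ± 3.54 TPM in NC cells, so it had the directions of SREBF2. PLTP, the phospholipid transfer protein, went the other way in RKO, with 11.5, 12.0 and 11.0 TPM with shCKAP2L, against 3.06, 3.02 and 2.60 TPM with NC (log2 fold change 1.69 ± 0.06, adjusted p = 4.75e-12). NR1H2, which encodes LXR-beta, fell by 0.54 in RKO.

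Of the 15 esterification and sterol transport genes, 4 of 14 tested rose in HCT116, and 4 of 12 tested rose and 3 fell in RKO. Set beside the 20.6% and 68.5% of all tested genes called, neither these counts nor those of the isoprenoid branch show anything particular to the list. LIMA1, which has a role in cholesterol uptake, rose by 0.21 in HCT116 and 0.08 in RKO. LIPA, the lysosomal acid lipase, averaged 67.7 ± 0.87 TPM in RKO shCKAP2L cells and 39.8 ± 0.35 TPM in NC cells (log2 fold change 0.75 ± 0.03), and rose by 0.19 ± 0.05 in HCT116. NCEH1, a cholesteryl ester hydrolase, fell by 0.56 in RKO, and STARD3, a late endosomal sterol carrier, rose by 0.27 there. The scavenger receptor SCARB1 rose by 0.17 in HCT116 and fell by 0.28 in RKO, and LRP8, another lipoprotein receptor, fell by 0.23 in RKO. In the isoprenoid branch, 2 of 13 rose and 1 fell in HCT116, and 2 rose and 6 fell in RKO; PDSS1, for ubiquinone side chains, was the gene that fell in HCT116 (by 0.19). Among 6 redox and scaffold partners of the sterol enzymes, 2 rose in HCT116 and 5 fell in RKO. Over all tested genes 16.4% rose in HCT116 and 42.1% fell in RKO. PGRMC1, a partner of CYP51A1, averaged 169.7 ± 3.24 TPM in RKO shCKAP2L cells and 245.3 ± 2.50 TPM in NC cells (log2 fold change -0.53 ± 0.03).

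Control levels came from a separate table for each line and were set side by side with no test. They were alike for some members and not for others. What differs between the tables besides the line was not tested. SREBF2 had 203.8 ± 7.22 TPM in HCT116 vector cells and 173.2 ± 3.82 TPM in RKO NC cells, and INSIG1 had 47.7 ± 2.83 and 46.7 ± 0.83 TPM in those groups. CYP51A1 had 55.9 ± 0.15 TPM in HCT116 vector cells and 208.6 ± 5.47 TPM in RKO NC cells, while MVD had 126.8 ± 6.33 and 49.4 ± 3.07 TPM. ACAT2 had 22.3 ± 2.09 and 72.2 ± 2.23 TPM. The ratio of SREBF2 to SREBF1 was 1.10 ± 0.026 in HCT116 CKAP2L cells and 1.17 ± 0.009 in vector cells, and 2.04 ± 0.039 in RKO shCKAP2L cells and 2.17 ± 0.074 in NC cells.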

How the data were processed

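Libraries were made from total RNA with an mRNA-seq kit, per the labels' protocols. Per the submitters' processing notes, reads went through FastQC 0.11.2, Trimmomatic 0.36, HISAT2 2.0 and bedtools 2.26.0 on GRCh38; those sources do not name the counting tool, annotation or strand setting. The authors deposited TPM values, 1 table per cell line with 20263 genes and 6 libraries each, with columns that sum to about the same total, so read depth cannot be recovered and no counting intervals are given. No columns were identical.

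A table of gene names gave symbols to 20148 identifiers and GENCODE 29 to a further 76, leaving 39 without. Genes with a mean of at least 1 TPM over a line's 6 libraries were tested as log2(TPM + 1) with limma 3.58.1 (R 4.3.3), trended prior variance, 1 fit per line and 1 fit over 12 libraries for the difference between lines; p-values were two-sided, Benjamini-Hochberg adjusted over all tested genes, with calls at 0.05. A fold change on this scale understates changes of low genes. The code was tested on simulated data. Groups followed the titles. All 30 members and CKAP2L were named. From each companion list, genes with the 3 smallest adjusted p in a line could be named, and not all of them were. The 4 ratios between genes were chosen after their values were seen. The members and lists were chosen with earlier results of these data known. Alternatives were pseudocounts of 0.1 and 5, no filter and a mean of 5 TPM, median-of-ratios, quantile and mitochondria-free scaling, no variance trend, a replicate block, and leaving out each library in turn. Gene positions came from GENCODE 29 and promoter windows from RefSeq on GRCh38.p14.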

Additional observations from a re-analysis of the deposited data

Results flagged for a closer look

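The change of a gene between more and less CKAP2L was compared between the lines with 1 limma fit over 12 libraries, as the HCT116 difference (CKAP2L minus vector) minus the RKO difference (NC minus shCKAP2L), on the log2(TPM + 1) scale. The difference between the lines passed an adjusted p of 0.05 by limma in 22 of the 28 members tested, and in 54.5% of the 11024 genes of the fit. Because HCT116 cells were given more CKAP2L and RKO cells less, line and manipulation cannot be told apart in these values.

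Among the genes whose level was lower with shCKAP2L in RKO by more than it was higher with CKAP2L in HCT116, the mevalonate enzymes had differences of -0.676 for ACAT2, -0.304 for IDI1, -0.224 for FDPS and -0.219 for HMGCS1. The squalene enzymes had -0.165 for SQLE and -0.153 for FDFT1. After lanosterol the differences were -0.700 for LBR, -0.540 for EBP, -0.328 for MSMO1, -0.282 for NSDHL, -0.278 for DHCR7, -0.256 for HSD17B7 and -0.225 for CYP51A1. STARD4 had -0.465, MYLIP -0.325 and SREBF2 -0.169. NPC2, which fell in RKO and had a value of -0.09 in HCT116 that did not pass (adjusted p = 0.121), had -0.305.

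Positive differences were found in fewer members. INSIG1 (1.111) and NPC1 (0.358) rose in both lines, and PMVK (0.208) rose in RKO shCKAP2L cells with an HCT116 value of -0.06 that did not pass. LSS (0.150) and TM7SF2 (0.138) had the larger change in HCT116. CKAP2L itself had a difference of 2.399, since it was raised in HCT116 by more than it was lowered in RKO.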

How the results depend on the processing

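Counts of members called kept within 1.5 times their values in every alternative but for the 1 member, NPC2, that fell in HCT116 under median-of-ratios, quantile and mitochondria-free scaling, against 0 as deposited (medians as deposited 0.245 in HCT116 and -0.447 in RKO). These scalings moved the median log2 fold change of the members to 0.186, 0.203 and 0.198 in HCT116 and to -0.405, -0.389 and -0.417 in RKO, and a pseudocount of 5 moved it to -0.4 in RKO. The count of members called in opposite directions, 16 as deposited, was 13, 12 and 13 under the 3 scalings. Signs turned for LBR in HCT116 (-0.023, -0.011 and -0.012 under those 3 scalings), for SCAP in HCT116 (-0.025, -0.011 and -0.014) and for LSS in RKO (0.004 with median-of-ratios and 0.034 with quantile scaling); none of these passed before or after, and the cause was not tested. Leaving out 1 library at a time gave 17 to 20 members higher and 0 lower in HCT116, 3 to 4 higher and 20 to 23 lower in RKO, 14 to 17 called in opposite directions and 19 to 24 that differed between the lines, with medians of 0.228 to 0.263 and -0.465 to -0.437. Deviations from the group means of same-numbered libraries had correlations of -0.088 to -0.036 in HCT116 and -0.043 to 0.049 in RKO. These values show no pairing by replicate number, but with 3 libraries per group they cannot exclude one. A model with the replicate number as a block gave 17 members higher and 0 lower in HCT116, 3 higher and 23 lower in RKO, 14 in opposite directions and 22 that differed between the lines. Over single genes, the other settings left 482 values with the same sign and side of the threshold, while 7 gained a call, 23 lost one and 8 changed sign. ABCA1 and ABCG1 were too low in RKO to be tested with a filter, and TPM keeps no depth, so how far counting error limits them is unknown.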

Other observations

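Some genes use the isoprenoid products of the pathway rather than the sterols. RABGGTB, a subunit of the enzyme that prenylates Rab proteins, averaged 132.7 ± 5.50 TPM in HCT116 CKAP2L cells and 110.0 ± 5.70 TPM in vector cells (SD, n = 3 each), a log2 fold change of 0.27 ± 0.04 (limma adjusted p = 0.000652), and fell by 0.07 in RKO (adjusted p = 0.023). RCE1 and ICMT, which trim and methylate prenylated proteins, fell by 0.28 and 0.25 in RKO, and in HCT116 RCE1 rose by 0.14 (adjusted p = 0.0286) while ICMT averaged 82.7 ± 0.83 TPM with CKAP2L and 82.3 ± 0.28 TPM with vector (adjusted p = 0.931). PGGT1B, a prenyltransferase subunit, fell by 0.35 in RKO and had a value of 0.15 ± 0.07 in HCT116 that did not pass (adjusted p = 0.179).

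Among the redox and scaffold partners of the sterol enzymes was CYB5B, a cytochrome of the outer mitochondrial membrane, which averaged 131.0 ± 3.33 TPM in HCT116 CKAP2L cells and 112.2 ± 3.92 TPM in vector cells, and 71.2 ± 1.07 TPM in RKO shCKAP2L cells and 85.5 ± 1.06 TPM in NC cells. ERG28, a scaffold of the demethylation enzymes known from yeast, rose by 0.15 in HCT116 and fell by 0.08 in RKO. GRAMD1B, which carries cholesterol from the plasma membrane to the endoplasmic reticulum, averaged 7.46 ± 0.18 TPM in HCT116 CKAP2L cells and 5.67 ± 0.51 TPM in vector cells, a rise of 0.34 ± 0.08 on the log2 scale (limma adjusted p = 0.00626). RKO levels were 0.76, 0.72 and 0.69 TPM with shCKAP2L, against 0.33, 0.35 and 0.29 TPM with NC, under the minimum for testing.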
